A study of Mus musculus with 4 samples.

Results

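Notch signalling was followed through 10 genes of the mouse first pharyngeal arch: the ligands Jag1, Jag2 and Dll1, the receptors Notch1, Notch2 and Notch3, and the target genes Hey1, Hey2, Heyl and Hes1. They were chosen by gene symbol from the 52459 genes of a table of normalized read counts, and all 10 were found. Arches were taken when embryos had 25 to 27 somites, between E9.5 and E9.75. The first group, Wnt1-Cre;pMes-Bmp4, had 2 libraries of first arch RNA, also called the transgenic libraries here, and the second, wild-type, had 2 libraries of the same tissue. In Wnt1-Cre;pMes-Bmp4 embryos a Cre recombinase under Wnt1 control, which is active in neural crest, switches on a Bmp4 transgene. No group carried Wnt1-Cre or pMes-Bmp4 alone, so raised Bmp4 and any other effect of these alleles cannot be told apart. The labels give no strain or sex, and do not say that the numbered libraries came from separate embryos, litters or pools. P-values therefore rest on the spread between these samples alone, part of which may be technical.

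Notch receptors are transmembrane proteins that are cut when a ligand on a neighbouring cell binds and pulls on them. The freed intracellular part enters the nucleus, joins the DNA-binding protein RBPJ and a Mastermind coactivator, and turns on genes of the Hes and Hey families, which encode repressors. In the zebrafish face Jagged-Notch signalling is known to act in the dorsal part of the arches, where it is opposed by endothelin and BMP signals from the ventral side. In the mouse the pathway is also well known in arteries, smooth muscle, sensory ganglia and epithelia, all of which can contribute RNA to a whole arch.

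Bmp4, the transgene's gene, read 2656 and 1745 normalized reads in Wnt1-Cre;pMes-Bmp4, against 681.7 and 437.1 in wild-type (log2 fold change 1.98, limma adjusted p 0.0211). Libraries held 29607541 to 31404494 reads in Wnt1-Cre;pMes-Bmp4 and 33763574 to 47849092 in wild-type. All 16 arch mesenchyme markers were detected, and the summed normalized reads of 7 Hox genes of more posterior arches were between 4.11 and 11.1 per library, with Hoxa4 at 0 in each. Values below are normalized reads, that is, reads divided by a size factor for each library.

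Of the 10 genes, Notch2 and Heyl were lower in Wnt1-Cre;pMes-Bmp4 and the other 8 did not pass the test. The test was limma on log2(value + 1), with Benjamini-Hochberg adjustment over 16746 genes and a threshold of 0.05. At that threshold 5.28% of all genes tested were called lower and 2.97% higher, against 2 and 0 of the 10. On recovered reads edgeR called Notch2 and Heyl lower and 0 higher, where 5.46% of all genes were lower and 2.44% higher. DESeq2 called 3 lower (Notch1, Notch2 and Heyl) and 0 higher. It gave an adjusted p to 14148 genes, of which 11.1% were lower and 8.72% higher. At an unadjusted limma p under 0.05 there were 6 of the 10, of which Hey2 alone was on the higher side, beside 28.8% of all genes. The median log2 fold change of the 10 genes was -0.52, beside 0.02 over all genes tested, and 8 of the 10 were negative, as were 48.7% of all genes. All 10 passed the filter of a mean of at least 10. In fits with 1 library left out, the lone library of a group was assumed to vary like the other group. Both calls depended on each wild-type library: without wild-type 1 or without wild-type 2, 0 of the 10 were called in limma, with 4 and 2 at an unadjusted p under 0.05. Those fits called 0 and 1 of all genes, with 19.0% and 10.8% at an unadjusted p under 0.05. Without Wnt1-Cre;pMes-Bmp4 1, 6 were called lower (Jag1, Notch1, Notch2, Notch3, Heyl and Hes1), and without Wnt1-Cre;pMes-Bmp4 2, 3 were (Notch1, Notch2 and Heyl). Calls over all genes grew in these fits too, to 16.2% lower and 16.0% higher without Wnt1-Cre;pMes-Bmp4 1, and to 11.4% lower and 7.17% higher without Wnt1-Cre;pMes-Bmp4 2.

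**Figure D1:**
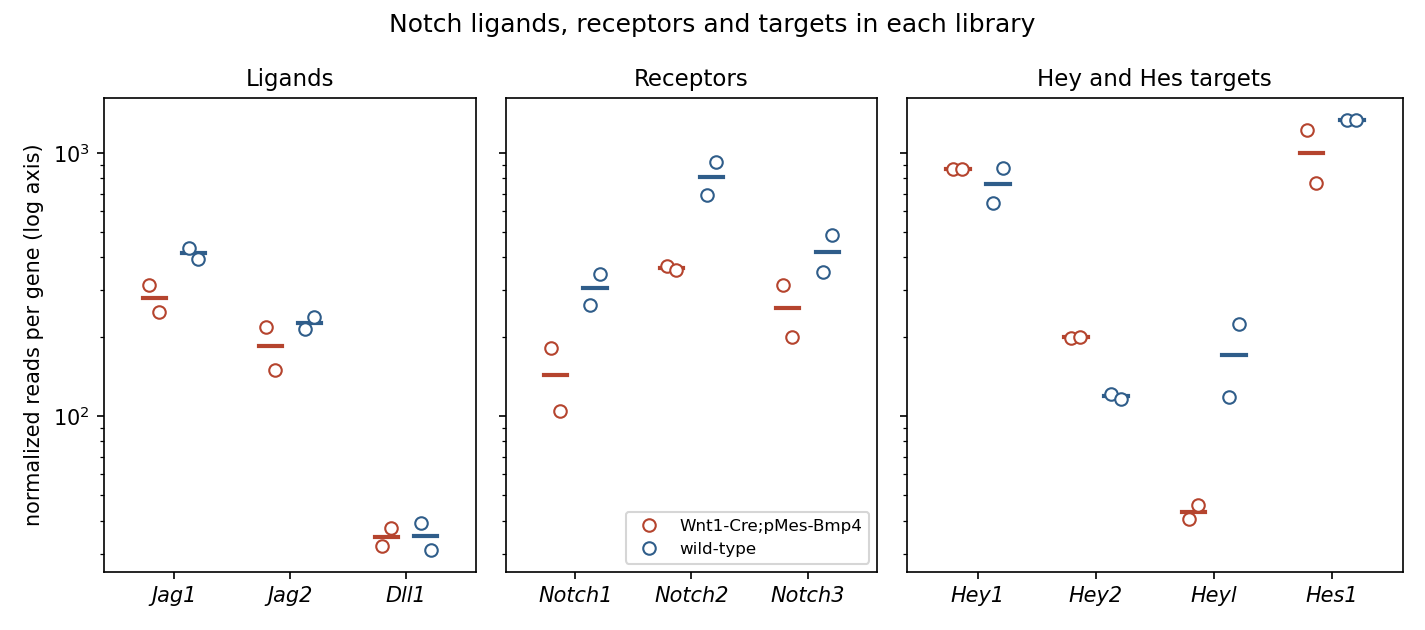
Normalized reads of the 10 genes in each library on a log axis, with a circle for each library and a bar for the mean of 2. Both Wnt1-Cre;pMes-Bmp4 circles lie below both wild-type circles for Notch1, Notch2, Notch3, Jag1, Heyl and Hes1, and above them for Hey2. Over all genes tested, 29.7% showed the first order and 30.0% the second.

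Compared per length of the longest transcript, the targets Hes1 and Hey1 stood far above the other members in both genotypes. Hes1 was at 678 ± 220 normalized reads per kb in Wnt1-Cre;pMes-Bmp4 and 909 ± 2.26 in wild-type (SD, n = 2 each), and Hey1 at 358 ± 0.672 in Wnt1-Cre;pMes-Bmp4 and 314 ± 65.8 in wild-type. In wild-type the order then ran from Notch2 at 76.9 and Jag1 at 74.1 through Notch3, Hey2, Jag2 and Heyl to Notch1 at 32.3, with Dll1 last at 9.80 normalized reads per kb. Notch2 and Jag1 did not differ beyond their spread, since the wild-type libraries read 65.8 and 87.9 for Notch2 and 77.6 and 70.6 for Jag1. In Wnt1-Cre;pMes-Bmp4, Hey2 came next after Hes1 and Hey1 at 77.9, and Dll1 and Heyl were level at the bottom at 9.72 and 9.54 normalized reads per kb.

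Jag1 encodes a ligand of the Jagged family, and in people its loss causes Alagille syndrome, which includes changes of the face. It read 314.6 and 247.3 normalized reads in Wnt1-Cre;pMes-Bmp4 against 435.4 and 396.0 in wild-type. Both Wnt1-Cre;pMes-Bmp4 libraries were below both wild-type libraries, an order that 29.7% of all genes tested showed. The log2 fold change of -0.57 ± 0.21 (SE) did not pass in limma (adjusted p 0.122). It was -0.75 without Wnt1-Cre;pMes-Bmp4 1 and -0.40 without Wnt1-Cre;pMes-Bmp4 2. Jag2, a Jagged ligand known from epithelia of the palate and tongue, read 218.6 and 149.1 in Wnt1-Cre;pMes-Bmp4 and 214.4 and 238.6 in wild-type. The groups overlapped (log2 fold change -0.32 ± 0.26 SE, limma adjusted p 0.447). Dll1, a Delta ligand best known from somites and nascent neurons, was scarce, at 32.0 and 37.6 in Wnt1-Cre;pMes-Bmp4 and 39.3 and 30.9 in wild-type. These values stood on 30 to 53 reads a library, and the log2 fold change of -0.01 had an SE of 0.41, so that a change of moderate size was not detectable at this depth.

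Each of the 3 receptors had both Wnt1-Cre;pMes-Bmp4 libraries below both wild-type libraries, as did 29.7% of all genes tested. Notch2, the receptor paired with Jagged1 in zebrafish arch patterning, lies on chromosome 3 at 98013527 to 98150361 of GRCm38. It read 372.2 and 357.7 normalized reads in Wnt1-Cre;pMes-Bmp4 and 691.3 and 922.6 in wild-type. The transgenic libraries were close together, and both were well under either wild-type library. By means Notch2 was 2.21-fold lower (log2 fold change -1.13 ± 0.19 SE, limma adjusted p 0.0268). Without wild-type 1 the log2 fold change of Notch2 was -1.34 with a limma adjusted p of 0.117, and without wild-type 2 it was -0.92 with 0.371.

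Notch1, a receptor of broad use in epithelium, endothelium and progenitors, read 181.3 and 104.3 normalized reads in Wnt1-Cre;pMes-Bmp4 and 264.8 and 347.6 in wild-type. Its log2 fold change of -1.14 was as large as that of Notch2, but its libraries were more spread, the SE was 0.31 and the limma adjusted p 0.0668. DESeq2 on the recovered reads called it lower (adjusted p 0.0146), where 11.1% of the 14148 genes with an adjusted p were called lower. Without Wnt1-Cre;pMes-Bmp4 1 the log2 fold change of Notch1 was -1.53, and without Wnt1-Cre;pMes-Bmp4 2 it was -0.74. Notch3, the receptor of vascular smooth muscle and pericytes, read 313.6 and 198.8 in Wnt1-Cre;pMes-Bmp4 and 353.1 and 488.6 in wild-type. Its log2 fold change of -0.73 ± 0.28 (SE) did not pass (limma adjusted p 0.140), though it did without Wnt1-Cre;pMes-Bmp4 1, at -1.06 and an adjusted p of 0.000189.

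Summed per length with the endothelial receptor Notch4, the receptors came to 112 and 84.2 normalized reads per kb in Wnt1-Cre;pMes-Bmp4 and 156.7 and 210.6 in wild-type. Division by length leaves in this sum the lower Wnt1-Cre;pMes-Bmp4 values of long transcripts as a class, described below. The median log2 fold change was -0.60 in the bin of Notch1, Notch2 and Notch3. Notch2 made up 31.7% and 40.5% of that sum in Wnt1-Cre;pMes-Bmp4 and 42.0% and 41.7% in wild-type. Notch4 took the share of 16.33% and 17.04% in Wnt1-Cre;pMes-Bmp4, and 12.1% and 11.9% in wild-type. Within the ligands, Jag1 was the most abundant per length in all 4 libraries, with 41.2% and 44.8% of the sum of Jag1, Jag2, Dll1, Dll3 and Dll4 in Wnt1-Cre;pMes-Bmp4 and 51.1% and 42.9% in wild-type. With 2 libraries a group an exact permutation test of such a share cannot give a two-sided p below 0.333, so none was run.

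**Figure D2:**
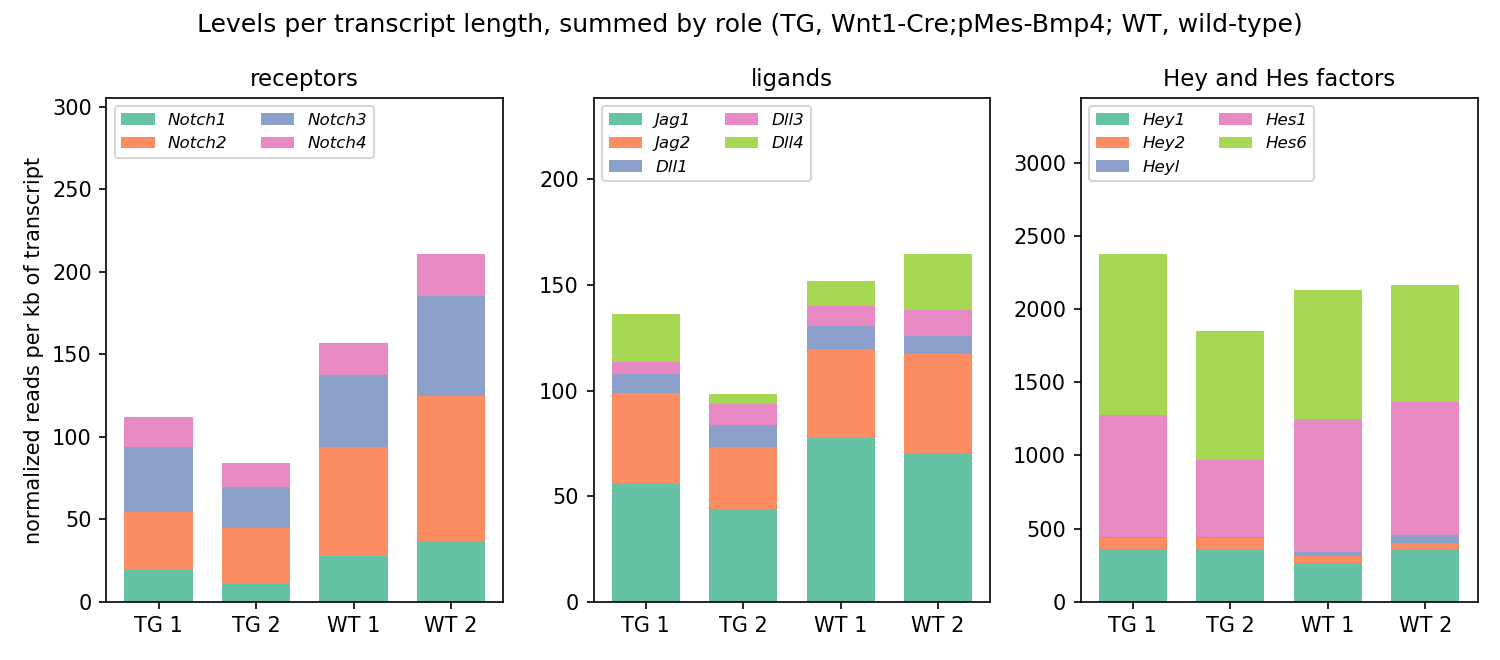
Normalized reads per kb of transcript, stacked by gene, for each Wnt1-Cre;pMes-Bmp4 library (TG) and each wild-type library (WT). The receptor sums are 112 and 84.2 in TG and 156.7 and 210.6 in WT, while the sums of Hey and Hes factors overlap between the groups.

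The Hey and Hes targets differed in direction. Heyl fell, Hey2 lay higher in both Wnt1-Cre;pMes-Bmp4 libraries without passing, Hey1 overlapped between the groups and Hes1 lay lower without passing. All 4 encode basic helix-loop-helix repressors. Hes proteins end in a tetrapeptide that binds corepressors of the TLE family, and Hey proteins carry a variant of it near their end. The last 48 bases of the coding sequences, stop codon included, show how these paralogs differ there, with capitals for a run of codons that reads TGG, TAC or TAT, then any codon, then CCN, then TGG. They come from GENCODE M21 transcripts on GRCm38.
Hey1: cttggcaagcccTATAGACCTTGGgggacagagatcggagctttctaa
Hey2: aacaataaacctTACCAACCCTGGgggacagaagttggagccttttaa
Heyl: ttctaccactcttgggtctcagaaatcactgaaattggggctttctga
Hes1: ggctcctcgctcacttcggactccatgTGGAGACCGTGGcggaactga
Hey1, Hey2 and Hes1 held such a run and Heyl did not. Their coding sequences had 299 codons in Hey1, 339 in Hey2, 326 in Heyl and 282 in Hes1. No 50-base stretch of the longest transcript of any of the 4 genes was found in a transcript of another gene, so the values of these paralogs are not mixed by shared sequence of that length.

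Heyl, on chromosome 4 at 123233556 to 123249875 of GRCm38, read 40.5 and 46.1 normalized reads in Wnt1-Cre;pMes-Bmp4 and 117.9 and 223.2 in wild-type. The transgenic libraries were close together, while wild-type 2 was 0.91 above wild-type 1 on the log2 scale. By means Heyl was 3.94-fold lower (log2 fold change -1.89 ± 0.38 SE, limma adjusted p 0.0343). Without wild-type 1 the log2 fold change was -2.34 (limma adjusted p 0.115) and without wild-type 2 it was -1.43 (0.401).

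Hey2, known from arteries and the heart, read 197.3 and 200.1 normalized reads in Wnt1-Cre;pMes-Bmp4 and 120.9 and 116.2 in wild-type. Replicates were close together in both groups, and both Wnt1-Cre;pMes-Bmp4 libraries were above both wild-type libraries, as for 30.0% of all genes tested. The log2 fold change of 0.74 ± 0.23 (SE) had a limma adjusted p of 0.0892 and did not pass. Among the 20 alternatives fixed with the design it passed only where the threshold was 0.1. Relative to Heyl in the same library, Hey2 stood at log2 ratios of 2.28 and 2.12 in Wnt1-Cre;pMes-Bmp4 and 0.04 and -0.94 in wild-type. These ratios are of normalized reads not divided by length, and the Heyl transcript is the longer, at 4537 bases against 2550. Per kb, Hey2 read 77.37 and 78.45 in Wnt1-Cre;pMes-Bmp4, against 8.93 and 10.16 for Heyl. In wild-type 1 Hey2 read 47.41 per kb against 25.99 for Heyl, and in wild-type 2 it read 45.58 against 49.19.

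The 250 bases upstream of the Hey2 start site, chr10:30842784-30843033 on the minus strand of GRCm38.p6 from RefSeq, are shown because they alone among 8 such windows of 7 members held the RBPJ letters TGGGAA on either strand. Capitals mark that match, which begins 207 bases before the start site on the other strand. Hey2: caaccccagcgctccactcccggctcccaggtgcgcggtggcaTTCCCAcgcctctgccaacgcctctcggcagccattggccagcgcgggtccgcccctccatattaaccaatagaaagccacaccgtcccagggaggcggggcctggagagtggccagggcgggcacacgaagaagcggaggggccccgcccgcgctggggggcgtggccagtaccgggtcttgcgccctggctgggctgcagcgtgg
The same letters occurred in 21.6% of 32851 windows, and a match is a description of the sequence only. Windows were at hand for Jag1, Jag2, Dll1, Notch1, Notch2, Notch3 and Hey2, and not for Hey1, Heyl or Hes1.

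Hey1, the most abundant Hey gene per length, read 869.2 and 866.9 normalized reads in Wnt1-Cre;pMes-Bmp4 and 646.8 and 872.2 in wild-type. Wild-type 2 was level with the transgenic libraries, and the log2 fold change of 0.21 ± 0.19 (SE) did not pass (limma adjusted p 0.493). Hes1, a target used in most Notch-responsive tissues and also by other signals, read 1223 and 767.5 in Wnt1-Cre;pMes-Bmp4 and 1337 and 1332 in wild-type. The wild-type libraries coincided, and 1 of the transgenic libraries was close to them. Its log2 fold change of -0.46 ± 0.22 (SE) did not pass (limma adjusted p 0.223). It was -0.80 without Wnt1-Cre;pMes-Bmp4 1 and -0.13 without Wnt1-Cre;pMes-Bmp4 2.

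**Figure D3:**
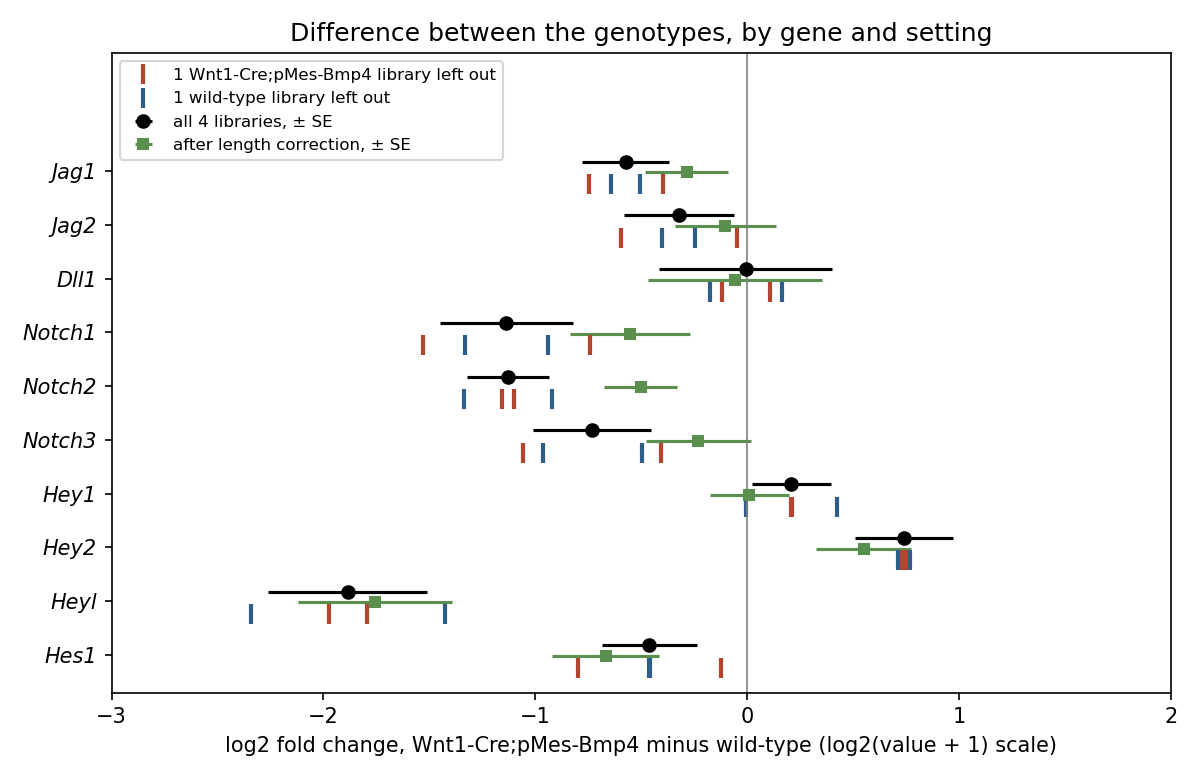
Log2 fold change of each gene, Wnt1-Cre;pMes-Bmp4 minus wild-type, from all 4 libraries (black, ± SE), after a correction for transcript length (green, ± SE) and with 1 library left out (ticks). Heyl lies between -2.34 and -1.43 with any library left out, while the receptors lie nearer 0 after the length correction.

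Transcript length moved with the difference between the genotypes, and it bore unequally on these genes. Genes averaging 50 or more normalized reads were set in bins of length, and the bin of longest transcripts, 6840 bases and more, which held Notch1, Notch2 and Notch3, had a median log2 fold change of -0.60. In the bin of Heyl, 4422 to 5240 bases, it was -0.14, and in that of Hey1 and Hey2, 2265 to 2801 bases, it was 0.21. After a correction of each library for transcript length 0 of the 10 were called (limma, 4 at an unadjusted p under 0.05, beside 23.6% of all genes), with 0.938% of all genes called lower and 0.627% higher. The median of the 10 was then -0.26. Notch2 stood at -0.50 ± 0.17 (SE, limma adjusted p 0.147), Notch1 at -0.55 (0.284) and Notch3 at -0.23 (0.611). Heyl hardly moved, at -1.76 ± 0.36 (SE), and just missed the threshold with a limma adjusted p of 0.0584. Hey2 was at 0.55 (0.196), Hes1 at -0.67 (0.172) and Jag1 at -0.29 (0.417). After a correction for length and GC content Heyl was called lower, at -1.65 and a limma adjusted p of 0.0378, and Notch2 was not, at -0.40 and 0.153, with 4.38% of all genes called lower.

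**Figure D4:**
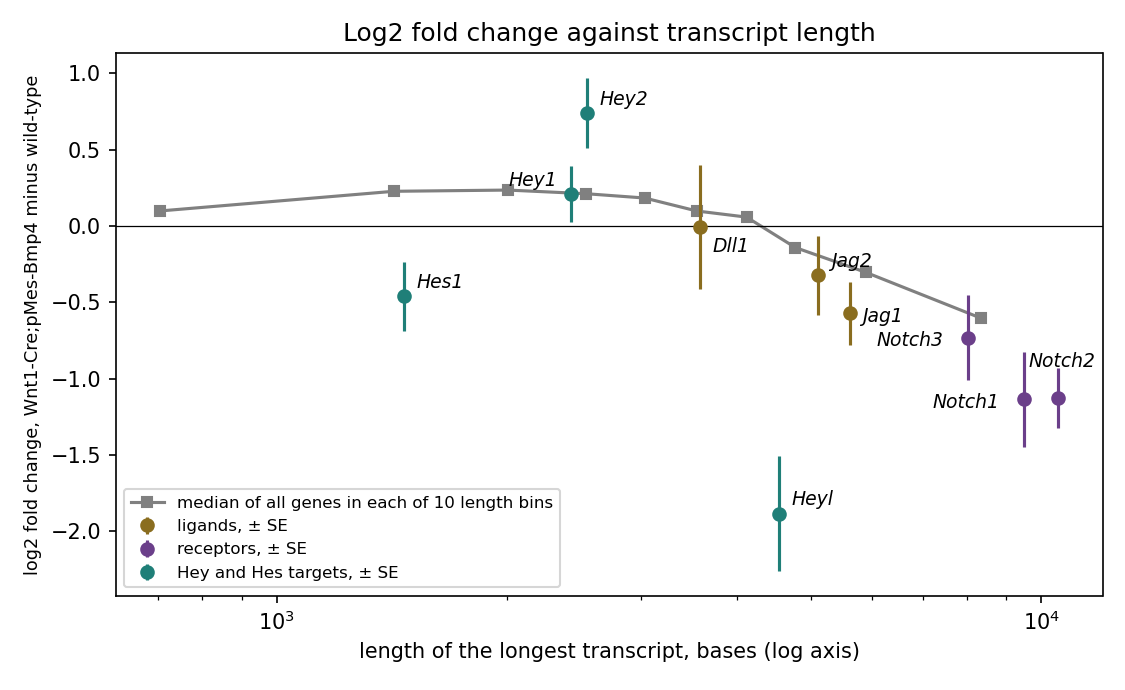
Log2 fold change (Wnt1-Cre;pMes-Bmp4 minus wild-type) against the length of the longest transcript on a log axis, with circles for the 10 genes (± SE) and squares for the median in each of 10 length bins of all genes averaging 50 or more normalized reads. The bin medians reach -0.60 at the longest transcripts, where the 3 receptors lie, and Heyl at -1.89 lies far under the -0.14 of its bin.

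Other genes of the pathway were read from 7 lists of 68 genes in all, arranged by role. Among the 58 tested, 9 fell, 1 rose and the other 48 did not pass. Their median log2 fold change was -0.40. Over all genes tested 5.28% were lower and 2.97% higher. Without Wnt1-Cre;pMes-Bmp4 1 limma called 25 lower and 5 higher, and without Wnt1-Cre;pMes-Bmp4 2 it called 17 and 3, beside the larger shares of all genes given above for these fits. Without either wild-type library it called 0, in fits that called 0 and 1 of all genes. The other ligands and Notch4 did not pass: Notch4 read 120.5 and 94.6 normalized reads in Wnt1-Cre;pMes-Bmp4 and 124.6 and 165.6 in wild-type (limma adjusted p 0.365). Dll4, a ligand of arterial endothelium, differed more within the groups than between them, at 84.3 and 18.2 in Wnt1-Cre;pMes-Bmp4 and 44.5 and 98.7 in wild-type (0.537). Without Wnt1-Cre;pMes-Bmp4 1 it was called lower, at -1.81 (limma adjusted p 0.00181).

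Of 5 genes tested that act in ligand endocytosis, 1 fell. Mib1, the ubiquitin ligase by which signal-sending cells pull on bound Notch, read 609 and 652.3 normalized reads in Wnt1-Cre;pMes-Bmp4 and 1399 and 1589 in wild-type, 2.37-fold lower by means (log2 fold change -1.24 ± 0.15 SE, limma adjusted p 0.0194). It is a long transcript of 10231 bases, and after the length correction it stood at -0.63 with a limma adjusted p of 0.0710. The endocytic adaptor Epn1 read 215.4 and 127.3 in the transgenic libraries against 319.7 and 368.2 in wild-type and did not pass (0.0658).

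None of the 8 genes of receptor glycosylation and none of the 9 of receptor cleavage passed (0 in limma for each list), with median log2 fold changes of 0.05 and -0.07. Poglut1, which adds glucose to Notch, had a log2 fold change of 0.69 (limma adjusted p 0.0519), and Pofut1, which adds fucose, -0.77 (0.0702). Adam17, a protease on the receptor cleavage list, was at 0.45 (0.114).

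The nuclear complex and its cofactors held most of the other calls, with 6 lower, 1 higher and 11 not passing among 18. Over all genes tested 5.28% were lower and 2.97% higher. The median transcript length of this list was 5966 bases, beside 3056 over all genes tested. After the length correction 1 of the 18 was lower and 0 higher. Maml1, a Mastermind coactivator of the Notch complex, read 213.3 and 175.8 normalized reads in Wnt1-Cre;pMes-Bmp4 and 598.6 and 722 in wild-type. That was 3.39-fold lower by means (log2 fold change -1.76 ± 0.21 SE, limma adjusted p 0.0194). It was called after the length correction too, at -1.48 with a limma adjusted p of 0.0367. Maml3 was 2.34-fold lower, the acetyltransferases Crebbp and Ep300 were 2.55-fold and 1.94-fold lower, and the corepressor Tle3 was 2.43-fold lower by means. After the length correction these 4 did not pass, with limma adjusted p values of 0.126 for Maml3, 0.0525 for Crebbp, 0.217 for Ep300 and 0.0849 for Tle3. The 1 that rose was the deacetylase Hdac1, named here after its value was seen, at 9136 and 10280 in Wnt1-Cre;pMes-Bmp4 and 6811 and 5770 in wild-type (limma adjusted p 0.0408, and 0.133 after the length correction). These cofactors serve many transcription factors besides Notch. Rbpj itself, also named after its value was seen, read 806.3 and 807.5 in the transgenic libraries against 1028 and 1199 in wild-type, with a log2 fold change of -0.46 ± 0.15 (SE). Its limma adjusted p was 0.103, and its log2 fold change stayed at -0.46 with either Wnt1-Cre;pMes-Bmp4 library left out. It was -0.57 without wild-type 1 and -0.35 without wild-type 2. After the length correction Rbpj, with a transcript of 5485 bases, stood at -0.19 (limma adjusted p 0.470).

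Of 12 inhibitors and turnover genes tested, 2 fell. Fbxw7, the ubiquitin ligase subunit that marks the Notch intracellular domain and other proteins for decay, read 402.1 and 311.6 normalized reads in Wnt1-Cre;pMes-Bmp4 and 764 and 774.5 in wild-type. Cdk8, a Mediator kinase that marks the same domain for Fbxw7, read 764.7 and 849.9 in the transgenic libraries against 1406 and 1575 in wild-type. They were 2.16-fold and 1.85-fold lower by means (limma adjusted p 0.0260 and 0.0264), and both were called after the length correction, with limma adjusted p values of 0.0475 and 0.0488. Nrarp, a feedback target named after its value was seen, was scarce, at 36.3 and 19.4 in Wnt1-Cre;pMes-Bmp4 and 31.2 and 38.1 in wild-type. Of 8 other Hes family genes 3 were tested and 0 passed in limma. Hes6 read 1721 and 1382 in Wnt1-Cre;pMes-Bmp4 and 1383 and 1263 in wild-type, and Bhlhe40 was set apart by 1 library, at 98.1 and 23.0 in the transgenic libraries against 18.5 and 24.7 in wild-type. Hes5, the target of neural progenitors, had between 1.03 and 6.40 normalized reads per library.

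**Figure D5:**
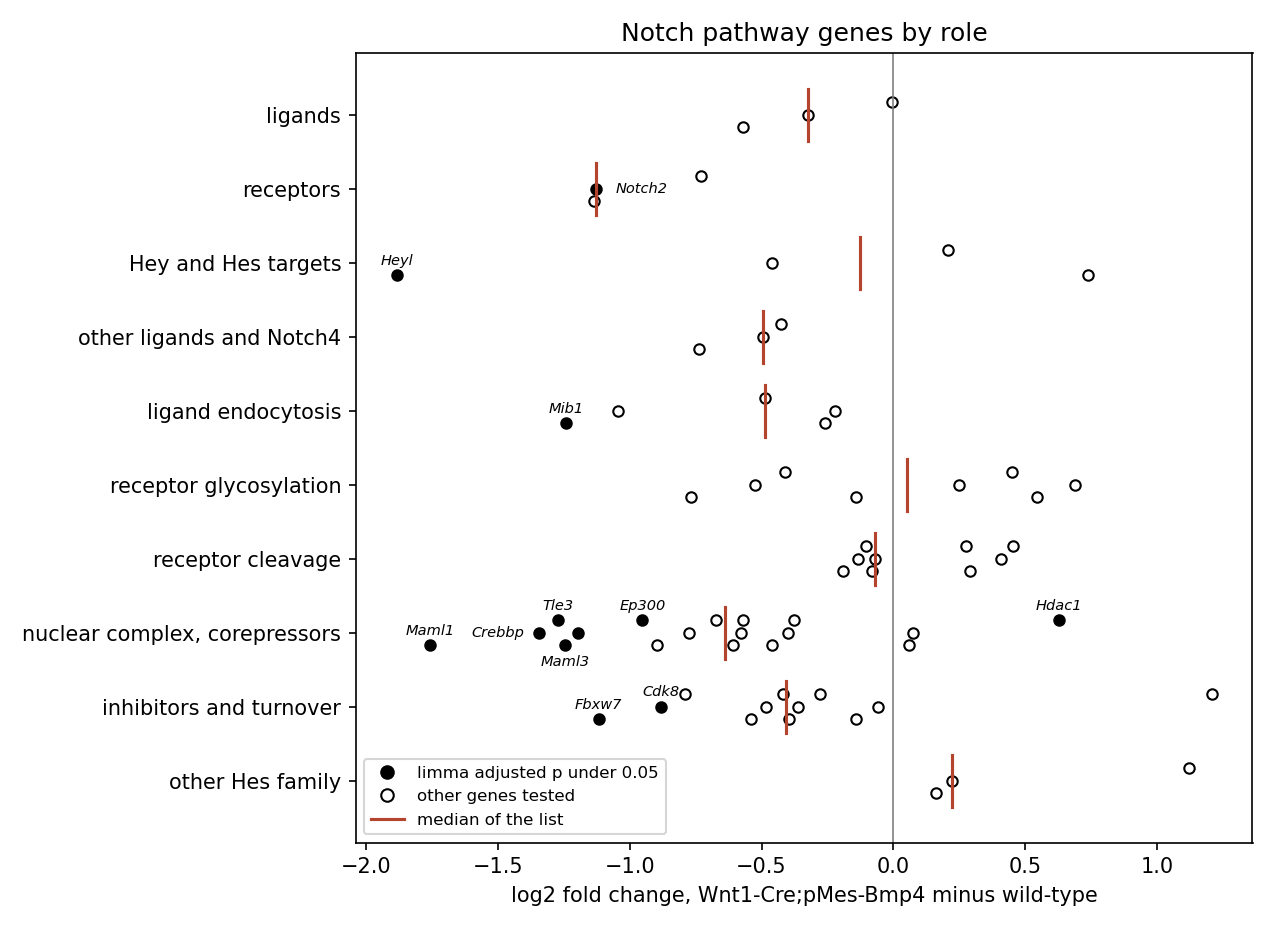
Log2 fold change (Wnt1-Cre;pMes-Bmp4 minus wild-type) of the 10 genes and of the 58 other pathway genes tested, one row for each role, with filled circles, 1 of them unnamed, for a limma adjusted p under 0.05 and a red bar for the median of the row. The filled circles lie at negative values except Hdac1, and the row of the nuclear complex and its corepressors holds 6 of the negative ones besides Hdac1. Over all genes tested, 5.28% were lower and 2.97% higher at this threshold. After the length correction that row holds 1 lower and 0 higher.

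In RNA of a whole arch, fewer cells of a type and less RNA per cell cannot be told apart, so markers of the other cell types that use Notch were read beside these values. Of 14 endothelium markers 0 passed in limma in either direction, and their summed normalized reads were 9587 and 9240 in Wnt1-Cre;pMes-Bmp4 and 7814 and 7895 in wild-type. Emcn and Esam had the smallest p-values, at log2 fold changes of 0.59 and 0.62 (limma adjusted p 0.0583 and 0.0841). Of the 14, 8 were positive and 6 negative, with a median of 0.15 and Flt1 lowest at -0.25. Of 7 artery markers tested Efnb2 alone passed, 0.90 lower on the log2 scale (0.0336), and next was Unc5b at 0.68 (0.102). Efnb2 is also expressed in arch mesenchyme. Of the 7, 5 were positive, with a median of 0.34, and Efnb2 accounted for 1032 and 794.2 of the sums in Wnt1-Cre;pMes-Bmp4 and 1567 and 1812 in wild-type. The list's sums were 2677 and 2151 in Wnt1-Cre;pMes-Bmp4 and 2721 and 3147 in wild-type. Of 9 mural cell markers 6 were tested and 0 passed in limma, with 4 positive and 2 negative. Rgs5 and Acta2 had the smallest p-values, at 1.97 and 0.87 (0.101 and 0.151), while Pdgfrb was at -0.33 and Cspg4 at -0.60 (0.424 and 0.590). Their sums were 1413 and 922.7 in Wnt1-Cre;pMes-Bmp4 and 965.8 and 1234 in wild-type, and Tagln was at 0 in Wnt1-Cre;pMes-Bmp4 2. Pdgfrb gave 761.5 and 495.9 of these sums in Wnt1-Cre;pMes-Bmp4 and 661.6 and 898.9 in wild-type. Tagln, Myh11 and Kcnj8 fell below the filter of a mean of at least 10, so the list is a weak measure of mural cell number. Heyl and Notch3 are genes of mural cells, and whether mural cell number bore on their values was not tested.

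Of 10 sensory ganglion and neuron markers tested 0 passed in limma, and the sums were 887.3 and 617.1 in Wnt1-Cre;pMes-Bmp4 and 1054 and 774.5 in wild-type. Neurog2 and Pou4f1 were at log2 fold changes of 2.15 and -1.10 (adjusted p 0.121 and 0.186). Of 10 neural tube markers 3 were tested and 0 passed in limma, with Sox2 at -0.63 (0.123), Pax6 at 1.00 (0.228) and Olig2 at 0 in every library. The sums were 1078 and 961.5 in Wnt1-Cre;pMes-Bmp4 and 1337 and 941.1 in wild-type. Among 11 epithelium markers tested 2 rose, Krt18 and Krt14, both keratins, at log2 fold changes of 0.87 and 0.98 (limma adjusted p 0.0309 and 0.0433). Their sums were 34810 and 32650 in Wnt1-Cre;pMes-Bmp4 and 26110 and 19840 in wild-type. Of 6 pharyngeal endoderm markers tested Nkx2-6 alone passed, at 2.41 (0.0301), while Foxa2 was at -1.50 (0.0554), and the sums were 759.4 and 611.1 in the transgenic libraries against 721.7 and 631.5 in wild-type. Of 7 arch mesoderm markers tested 0 passed in limma, with Tcf21 at 0.79 (0.0557) and sums of 4214 and 3985 in Wnt1-Cre;pMes-Bmp4 against 2989 and 2922 in wild-type. Of 9 blood markers Hbb-y and Hba-x were lower, at -0.99 and -0.81 (0.0218 and 0.0274), with sums of 341100 and 381000 in the transgenic libraries against 674200 and 613400 in wild-type. Of the 16 arch mesenchyme markers 4 were higher and 2 lower, with a median log2 fold change of -0.35. The smallest p-values were those of Msx2 at 1.95 and Prrx2 at 1.00 (0.0182 and 0.0237), and the 2 lower were Barx1 at -2.21 and Tfap2a at -1.07 (limma adjusted p 0.0321 and 0.0289). Their sums, 45160 and 33710 in Wnt1-Cre;pMes-Bmp4 and 29770 and 39660 in wild-type, overlapped. Over all genes tested 5.28% were lower and 2.97% higher. After the length correction Msx2, Tfap2a and Hba-x were still called (limma adjusted p 0.0317, 0.0403 and 0.0494). Efnb2, Krt18, Krt14, Nkx2-6, Hbb-y, Prrx2 and Barx1 were not, with limma adjusted p values from 0.0512 to 0.0985. With that correction 0.938% of all genes were lower and 0.627% higher. The part of any of these cell types in the Notch values was not tested.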

How the data were processed

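Libraries were made from polyA RNA with random hexamer priming, per the labels' protocols. The deposited signal is a featureCounts read count for each gene, per the file headers, which the values show to have been divided by 1 size factor a library. Fastp 0.21.0 and mm10 are named in the submitters' processing notes. Which aligner, annotation, strand setting and normalizing tool were used is not given in the sources used here. In every column, values divided by the lowest nonzero one gave whole reads for 100% of values (within 0.01), and these recovered reads went into count tests as alternatives, which called 409 genes higher and 915 lower in edgeR, and 1234 and 1573 in DESeq2.

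The main test was limma 3.58.1 (R 4.3.3) with a trend on log2(value + 1), two-sided, for 16746 genes with a mean of at least 10. Fold changes on that scale understate the change of low genes. The fit had 2 residual and 5.26 prior degrees of freedom. Ratios of means are of normalized reads. Lengths are of the longest GENCODE M21 transcript (found for 96.9% of genes tested). The length correction subtracted from each library a spline (4 degrees of freedom) of its deviation from the gene mean on log2 length, fitted on genes averaging 50 or more, and another version added GC content. Other alternatives were pseudocounts, filters, quantile and TMM scaling, limma settings, edgeR 4.0.16, DESeq2 1.42.0, a replicate block and each library left out.

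On simulated counts for this comparison (16746 genes, 200 changed, 3 draws), the test recovered 34.3% of the changes of 2-fold and 73.3% of those of 4-fold, with 16.7 unchanged genes called on average. Without a stated strand setting, reads of overlapping genes cannot be separated. Exons of Notch1, Notch3 and Dll1 overlap antisense genes with mean values of 28.1, 7.76 and 1.38, and 3.86% of the 50-base stretches of Notch2 are shared with the overlapping Gm42820, whose mean was 14.3. The genes and lists were chosen with earlier results of these data known. Named were all 10 genes and Bmp4. Each pathway list gave up to 6 called genes in order of p, or its 2 lowest p where fewer than 2 passed, and each marker list its 2 lowest p. Of the genes this rule names, 3 are not reported here. Figures were drawn with matplotlib 3.10.9.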

Additional observations from a re-analysis of the deposited data

How the results depend on the processing

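Counts are given as higher and lower. Over all genes they were 0 and 0 in limma without the trend (3925 at an unadjusted p under 0.05), 0 and 0 at an adjusted p under 0.01, and 1307 and 1726 at 0.1. They were 105 and 157 after the length correction, 233 and 347 with that correction and the replicate block, 1234 and 1573 in DESeq2, and 809 higher with robust hyperparameters. With 1 library left out they ranged from 0 to 2675 higher and from 0 to 2719 lower. Of the 10 Notch genes the count lower was 0 without the trend, after the length correction and at 0.01, 1 after the length and GC correction and after the length correction with the block, and from 0 to 6 with 1 library left out; at 0.1, 1 (Hey2) was higher. Other pathway genes gave 0 and 0 without the trend and at 0.01, 0 and 3 after the length correction, 0 and 4 with the block added, 0 higher after the length and GC correction, 2 and 14 with robust hyperparameters, 2 and 18 in DESeq2, 2 and 19 at 0.1, 2 higher with a pseudocount of 5, no filter or a mean of at least 50, and from 0 to 5 higher and 0 to 25 lower with 1 library left out. The cause was not tested, beyond other thresholds and fewer samples by construction.

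Libraries are numbered 1 and 2 within each genotype, and the labels do not say that a number is shared, and deviations of same-numbered libraries correlated at -0.147 over 16746 genes. With the replicate block the counts were 165 and 543 over all genes and 0 higher among other pathway genes. With the numbers crossed between groups, an alternative chosen after seeing the data, they were 1763 and 1952 over all genes, 4 lower among the Notch genes, and 4 and 21 among other pathway genes.

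Signs turned only for log2 fold changes that had not passed: Jag2 (0.36), Notch3 (0.10), Notch4 (0.40) and Dll1 (0.020) after the length and GC correction, and Dll1 also with quantile normalization (0.12), without Wnt1-Cre;pMes-Bmp4 replicate 1 (0.11) and without wild-type replicate 1 (0.16). Hey1 turned without wild-type replicate 1, and Dll4 and Nrarp turned without Wnt1-Cre;pMes-Bmp4 replicate 2. With 1 library left out Dll1 ranged from -0.18 to 0.16, Hey1 from -0.0068 to 0.42, Dll4 from -1.81 to 0.34 and Nrarp from -0.80 to 0.072. Over the 21 alternatives Heyl stayed between -2.34 and -1.43 and Notch2 between -1.34 and -0.40. Of the 10 genes, Dll1 had the fewest reads.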
